A study of Mus musculus with 8 samples.

Results

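The Nduf genes carry the nuclear instructions for NADH:ubiquinone oxidoreductase, the respiratory complex I of the mitochondrial inner membrane. Members were all genes of the array table whose symbol begins with Nduf, each represented by its probe set with the highest mean log2 signal, which gave 45 genes of the 22664 distinct symbols in the table. They divide into 38 subunits and 7 assembly factors (Ndufaf1 to Ndufaf7). By role, the subunits were 7 core subunits of the matrix arm, 9 accessory subunits of the matrix arm, 9 accessory subunits of the proximal membrane arm, 10 accessory subunits of the distal membrane arm, the acyl carrier Ndufab1, and the pair Ndufa4 and Ndufa4l2. The last pair keeps an Nduf name although the Ndufa4 protein is now placed in complex IV. The rule did not use any difference between the groups. Ndufaf8 stands in the table under the older symbol 1810043H04Rik and was therefore not a member.

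The arrays read RNA of the gastrocnemius (GAS), a calf muscle, taken from male mice of the C57/Bl6j strain. The mice were aged 14 weeks, and an adeno-associated virus (AAV) had been injected into the muscle 3 weeks before. In the MYTHO group, 4 muscles had received AAV sh-RNA MYTHO, a virus coding for a short hairpin RNA against the transcript of Mytho. In the scrmb group, 4 muscles had received AAV sh-RNA scrmb, with a scrambled hairpin. Both groups therefore carried a virus and a hairpin, and no uninjected muscle was analysed here. Per the study's methods, each mouse had the MYTHO virus in one leg and the scrambled virus in the other, and the hairpin was driven by a U6 promoter, which is active in all cell types and not only in muscle fibres. The 4 mice are called animals A to D, and each gave 1 array to each group. Values are log2 signals, so that a difference of 1 is a doubling. A bulk sample cannot tell fewer cells of one type from less RNA per cell.

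Complex I takes electrons from NADH, passes them along a flavin and a chain of iron-sulphur clusters in the arm that reaches into the matrix, and hands them to ubiquinone where the matrix arm meets the membrane arm. The membrane arm pumps protons, and its central pump proteins are coded by mitochondrial DNA. The accessory subunits surround this core and are needed for its assembly and stability, while the assembly factors help to build the complex and are absent from the finished enzyme. Oxidative muscle fibres, among them the slow fibres, are rich in mitochondria and so in complex I. GAS is mainly a fast muscle with a slow, oxidative region.

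Array medians lay between 6.39 and 6.47, and none of the Nduf probe sets reached the ceiling of the signal scale, 19.93, their values running from 5.87 to 17.85. The 10 skeletal muscle markers averaged 18.95 to 19.12 on every array, but 2 of them, Acta1 and Myh4, were saturated on all arrays, so this shows only that muscle RNA was present. Mytho, listed as D230025D16Rik, measured 11.35, 11.31, 10.78 and 11.05 with scrmb (animals A to D in this order, here and for every gene) and 8.16, 8.20, 8.80 and 8.08 with MYTHO. It fell by 2.81 on the log2 scale (SE 0.21, limma adjusted p = 0.00044), to 14.2% of the scrmb level, and the groups did not overlap (exact permutation test over 70 relabellings, two-sided p = 0.0286, the smallest it can give).

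Short stretches from the start of 8 Nduf genes are printed to show matches to motifs of known regulators of the respiratory chain, which most members lacked. RefSeq windows from 250 bases before to 50 bases after the start of a gene (build GRCm38.p6, the same assembly as mm10) were found for 39 of the 45 members. They were searched on both strands for a motif of YY1, AAGATGGCG, a motif of NRF1, GCATGCGC, a motif of the ETS family, CCGGAAGT, and a motif of the oestrogen-related receptors (ERR), AAGGTCA. YY1, NRF1 and ERR are transcription factors known for their binding to genes of the respiratory chain. The YY1 letters stood in 5 of 33 subunit windows (15.2%), in 0 of 6 assembly factor windows and in 1.64% of the windows of all 27025 genes. All 5 matches began between 22 and 35 bases after the start of the window's transcript. For Ndufs7 that start, at 80249449, lies 344 bases inside the gene as RefSeq bounds it, and for the other 4 it is the outer end of the gene. The run contains ATG, the letters of a start codon, and whether translation begins there was not examined. The YY1 stretches follow, read along the strand of the gene, with the match in capitals. Their positions were chr10:80249462-80249491 for Ndufs7 (plus strand) and chr3:51408915-51408944 for Ndufc1, chr6:126849097-126849126 for Ndufa9, chr13:73328433-73328462 for Ndufs6 and chr13:114388045-114388074 for Ndufs4 (all minus strand).
Ndufs7: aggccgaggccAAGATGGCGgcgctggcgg
Ndufc1: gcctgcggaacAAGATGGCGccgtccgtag
Ndufa9: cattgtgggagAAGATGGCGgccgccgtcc
Ndufs6: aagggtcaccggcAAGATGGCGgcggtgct
Ndufs4: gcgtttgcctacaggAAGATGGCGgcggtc

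The NRF1 letters stood in 3 of 33 subunit windows (9.09%), in 2 of 6 assembly factor windows (33.3%) and in 3.05% of all windows. The 3 printed here lie before the start of the gene. In Ndufa11 and Ndufaf4 the motif overlaps its own reverse complement, so that a longer run is in capitals. The stretches were at chr17:56717692-56717721 for Ndufa11 (plus strand), chr15:82354356-82354385 for Ndufa6 (minus strand) and chr4:24897960-24897989 for Ndufaf4 (plus strand).
Ndufa11: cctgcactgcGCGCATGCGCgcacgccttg
Ndufa6: tccgcggtagaGCATGCGCattgcagagcc
Ndufaf4: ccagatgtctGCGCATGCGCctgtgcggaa

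The ERR letters were in 3 of 33 subunit windows (9.09%) against 5.38% of all windows, and the ETS letters in 1 of 33 (3.03%) against 4.31%. Neither was in an assembly factor window. A match of letters is a description of the sequence and does not show binding. For the 5 genes with the YY1 letters, the log2 fold change of MYTHO over scrmb was 0.64 for Ndufs7, 0.10 for Ndufc1, -0.02 for Ndufa9, -0.01 for Ndufs6 and -0.21 for Ndufs4.

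The comparison of MYTHO with scrmb asked whether complex I transcripts differed after knockdown. Subunit signals tended to be higher in MYTHO, those of the 7 Nduf assembly factors did not, and no single Nduf gene passed the adjusted test. The log2 fold change was above 0 for 33 of 38 subunits, with a median of 0.21, and for 3 of 7 assembly factors, with a median of -0.04. Among all 22206 probe sets, 49% were above 0 and the median was -0.005. Of the probe sets whose mean signal lay between the quartiles of the subunits, 1703 in number, the median was -0.01. No such range was taken for the Nduf assembly factors, whose signals were lower (mean 9.19 against 13.23 in scrmb). Complex I assembly factors outside the Nduf names had a median of 0.18, with 8 of 13 above 0. The subunits are not independent of one another, since they were read on the same 8 arrays, and no test was made of the family as a whole.

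At an adjusted p under 0.05 (limma, Benjamini-Hochberg over all probe sets), 0 of 45 members were called, against 0.027% of all probe sets. The lowest adjusted p was 0.222, for Ndufv3. At an unadjusted p under 0.05, 10 members were higher and 0 lower. The background at that threshold was 4.81% of all probe sets higher and 7.58% lower. The share that was higher among probe sets in the signal range of the subunits was 7.11%. The 10 were Ndufv3, Ndufa4l2, Ndufa3, Ndufa2, Ndufa13, Ndufa1, Ndufab1, Ndufb10, Ndufs7 and the assembly factor Ndufaf5. With the animal as a block, 7 of them kept an unadjusted p under 0.05, and Ndufs7, Ndufab1 and Ndufa1 did not. In that fit 4.945% of all probe sets were higher. The count also rested on single arrays: it was 2 without the scrmb array of animal C, 2 without the MYTHO array of animal B, 3 without the scrmb array of animal B, 5 without the MYTHO array of animal D, and 6 without the MYTHO array of animal A or of animal C. In these fits the share of all probe sets that was higher was 3.68%, 3.45%, 3.73%, 4.91%, 4.45% and 4.72%, in the same order, so that a count of 2 of 45 members is near the background. In 4 genes, Ndufv3, Ndufa2, Ndufa13 and Ndufa1, all MYTHO arrays stood above all scrmb arrays, and in 0 genes below. Over all probe sets, 2.59% had groups apart in the first direction and 3.87% in the second.

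**Figure D1:**
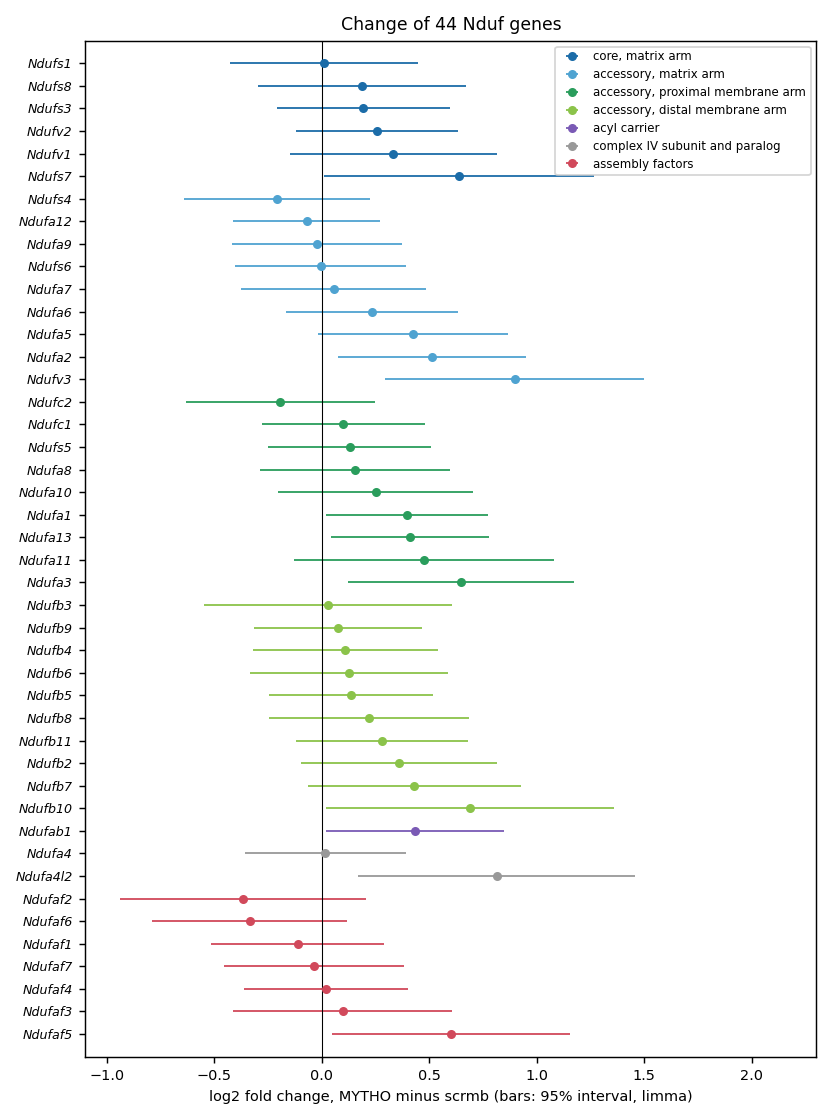
Log2 fold change of MYTHO over scrmb (x axis) for 44 Nduf genes (y axis), with 95% intervals from limma as bars and colours for the role of the gene. Most subunits lie to the right of 0, from -0.21 for Ndufs4 to 0.90 for Ndufv3, and the 7 assembly factors at the bottom lie on both sides of it.

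The 7 core subunits of the matrix arm, which hold the flavin and the iron-sulphur clusters, all had a log2 fold change above 0, with a median of 0.19. The largest was that of Ndufs7, which carries the last cluster before ubiquinone (gene at chr10:80249105-80256794). It measured 16.12, 15.45, 14.96 and 16.37 with scrmb and 16.20, 16.72, 16.29 and 16.24 with MYTHO on the log2 scale. The scrmb arrays of animals B and C were low, that of A was just below the lowest MYTHO array and that of D was within the MYTHO range, so the groups overlapped. The log2 fold change was 0.64 (SE 0.29, unadjusted p = 0.0468, limma adjusted p = 0.393).

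Ndufv1, which binds NADH and the flavin, was at 15.87, 15.47, 15.53 and 15.90 in scrmb and at 15.59, 16.53, 16.06 and 15.92 in MYTHO, a log2 fold change of 0.33 (SE 0.22, limma adjusted p = 0.585). Its partner Ndufv2, an iron-sulphur protein, was at 14.89, 15.30, 15.17 and 15.08 in scrmb and at 15.26, 15.51, 15.47 and 15.23 in MYTHO, a log2 fold change of 0.26 (SE 0.17, limma adjusted p = 0.587). Ndufv2 was the only core subunit other than Ndufs7 with the MYTHO array of animal A above the scrmb array of the same mouse. Ndufs3, of the part of the arm nearest to ubiquinone, was at 16.33, 16.17, 16.04 and 16.46 in scrmb and at 16.13, 16.57, 16.44 and 16.63 in MYTHO. Ndufs8, another carrier of iron-sulphur clusters, was at 15.04, 14.64, 14.37 and 14.95 in scrmb and at 14.50, 15.28, 15.08 and 14.89 in MYTHO. In both genes the MYTHO array of animal A was the lowest of its group, and the log2 fold change was 0.19 in each, with limma adjusted p of 0.729 for Ndufs3 and 0.785 for Ndufs8.

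Ndufs1, the largest core subunit, was at 14.82, 14.27, 14.55 and 14.60 in scrmb and at 14.14, 14.74, 14.68 and 14.72 in MYTHO. The MYTHO array of animal A stood apart from the other 3, and the group means did not differ beyond their spread (14.56 ± 0.23 and 14.57 ± 0.29, SD, n = 4 each). The log2 fold change was 0.01, with a 95% interval from -0.43 to 0.45. It changed sign with quantile normalization, to -0.04, so its direction is not settled.

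The accessory subunits of the matrix arm held both the largest and the lowest fold change of any subunit, and 5 of 9 were above 0, with a median of 0.06. Ndufv3, a small subunit beside the NADH site (gene at chr17:31520115-31531326), was at 6.92, 7.25, 6.21 and 7.24 in scrmb and at 7.65, 8.14, 7.27 and 8.15 in MYTHO. All MYTHO arrays were above all scrmb arrays, but by only 0.02 at the nearest pair, the MYTHO array of animal C and the scrmb array of animal B. Signals of Ndufv3 were low, with scrmb values near the array medians of 6.39 to 6.47. The log2 fold change was 0.90 (SE 0.28, 95% interval 0.30 to 1.5, unadjusted p = 0.00702, limma adjusted p = 0.222). Its unadjusted p stayed under 0.05 in each of the 8 fits that left out 1 array, the highest being 0.0243. Among the other genes at that threshold, Ndufa4l2 and Ndufa3 did so in 6 fits, Ndufa2 in 5 and Ndufb10, Ndufaf5 and Ndufa13 in 3. For Ndufs7, Ndufab1 and Ndufa1 the number was 2. Ndufa2, a small protein with a thioredoxin-like fold, was at 11.05, 10.87, 10.63 and 11.30 in scrmb and at 11.34, 11.82, 11.32 and 11.42 in MYTHO. The groups were apart by 0.02, and the log2 fold change was 0.51 (SE 0.20, unadjusted p = 0.0257, limma adjusted p = 0.329).

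Ndufs4, a subunit whose loss in mice is used as a model of Leigh syndrome, was at 14.45, 14.24, 14.14 and 14.50 in scrmb and at 13.76, 14.23, 14.02 and 14.49 in MYTHO. The MYTHO arrays of animals B and D were within 0.01 of the scrmb arrays of the same mice, and those of A and C were lower. The log2 fold change was -0.21 (SE 0.20, limma adjusted p = 0.729). Ndufa12, which sits near Ndufs4 in the complex, was at 16.22, 16.03, 16.05 and 16.11 in scrmb and at 16.01, 16.05, 15.99 and 16.08 in MYTHO. These were the least variable values of any subunit in both groups, and the log2 fold change was -0.07, with a 95% interval from -0.41 to 0.27. The other 5 genes of this arm, Ndufa5, Ndufa6, Ndufa7, Ndufa9 and Ndufs6, ran from -0.02 to 0.43 with a lowest limma adjusted p of 0.424.

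In the proximal membrane arm, which lies next to the ubiquinone site, 8 of 9 accessory subunits were above 0, with a median of 0.25. Ndufa3 was at 16.48, 15.96, 15.69 and 16.27 in scrmb and at 16.43, 17.31, 16.51 and 16.74 in MYTHO. Only the MYTHO array of animal A was within the scrmb range, and the log2 fold change was 0.65 (SE 0.24, unadjusted p = 0.0203, limma adjusted p = 0.307). Ndufa13, also known as GRIM-19 (gene at chr8:69894163-69902558), was at 14.35, 14.39, 14.25 and 14.64 in scrmb and at 14.68, 14.87, 14.77 and 14.95 in MYTHO. The groups did not overlap, each mouse had the higher value in its MYTHO leg, and the log2 fold change was 0.41 (SE 0.17, unadjusted p = 0.0322, limma adjusted p = 0.354). Ndufa13 was the only member with another probe set, which also names Yjefn3, and that one went the other way at a low signal of 4.79 to 6.13, with a log2 fold change of -0.37 (limma adjusted p = 0.582).

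Ndufa1, a membrane subunit coded on the X chromosome (chrX:37187588-37191238), was at 10.60, 10.18, 10.47 and 10.68 in scrmb and at 10.88, 10.91, 10.91 and 10.82 in MYTHO. The MYTHO arrays lay within 0.09 of one another and above every scrmb array, with a log2 fold change of 0.40 (SE 0.17, unadjusted p = 0.0399, limma adjusted p = 0.377). Ndufc2 was the exception in this arm, at 15.71, 15.22, 15.64 and 15.07 in scrmb and 15.14, 15.39, 14.97 and 15.37 in MYTHO. It was lower in MYTHO in animals A and C and higher in B and D, with a log2 fold change of -0.19 (SE 0.20, limma adjusted p = 0.756). Ndufa8, Ndufa10, Ndufa11, Ndufc1 and Ndufs5 ran from 0.10 to 0.48, with a lowest limma adjusted p of 0.522.

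All 10 accessory subunits of the distal membrane arm, the far end that holds further proton pumps, were above 0, with a median of 0.18. The largest was Ndufb10, a protein that enters the intermembrane space, at 8.36, 8.43, 7.58 and 9.11 in scrmb and at 9.22, 9.56, 8.67 and 8.79 in MYTHO. The scrmb array of animal C was low and that of animal D was above 2 MYTHO arrays, and the log2 fold change was 0.69 (SE 0.31, unadjusted p = 0.0440, limma adjusted p = 0.388). The other 9 Ndufb genes ran from 0.03 to 0.43, and their lowest limma adjusted p was 0.474.

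Ndufab1, the mitochondrial acyl carrier protein, is part of complex I and also serves fatty acid and lipoic acid synthesis. It was at 14.25, 14.17, 14.00 and 14.51 in scrmb and at 14.42, 14.98, 14.69 and 14.57 in MYTHO, higher in the MYTHO leg of each of the 4 mice. The log2 fold change was 0.43 (SE 0.19, unadjusted p = 0.0423, limma adjusted p = 0.383). Ndufa4 and its paralog Ndufa4l2, which is known as a target of hypoxia-inducible factor, gave different values. Ndufa4 was at 17.61, 17.25, 17.41 and 17.36 in scrmb and at 17.20, 17.57, 17.43 and 17.49 in MYTHO, a log2 fold change of 0.02 (95% interval -0.36 to 0.39). It turned to -0.01 with quantile normalization. Ndufa4l2 was at 6.87, 6.59, 5.87 and 7.22 in scrmb and at 8.07, 7.38, 7.15 and 7.20 in MYTHO, so that only the scrmb array of animal D reached the MYTHO range. Its log2 fold change was 0.81 (SE 0.30, unadjusted p = 0.0179, limma adjusted p = 0.295). Signals of Ndufa4l2 were low, with scrmb values near the array medians of 6.39 to 6.47. The difference between the 2 paralogs was not tested. Without both genes, 31 of 36 subunits were above 0 and the median was again 0.21.

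The assembly factors gave no common direction. Ndufaf5, which modifies the core subunit Ndufs7, was at 7.93, 7.58, 8.40 and 8.65 in scrmb and at 8.33, 8.90, 8.69 and 9.04 in MYTHO. Each mouse had the higher value in its MYTHO leg, the groups overlapped, and the log2 fold change was 0.60 (SE 0.25, unadjusted p = 0.0358, limma adjusted p = 0.364). Ndufaf6, a factor needed early in the assembly, was at 10.42, 10.01, 10.15 and 9.87 in scrmb and at 10.09, 9.76, 9.92 and 9.34 in MYTHO. It was lower in the MYTHO leg of each mouse, with overlapping groups and a log2 fold change of -0.34 (SE 0.21, limma adjusted p = 0.554). Ndufaf2, which joins a late assembly stage, was at 6.96, 7.37, 7.72 and 6.84 in scrmb and at 6.52, 7.19, 6.43 and 7.29 in MYTHO. Animal D went against the other 3 mice, and the log2 fold change was -0.36 (SE 0.26, limma adjusted p = 0.621).

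The other 4 factors were near 0. Ndufaf1, of the complex that builds the membrane arm, was at 9.99, 9.83, 10.11 and 10.09 in scrmb and at 9.51, 10.07, 9.93 and 10.06 in MYTHO, a log2 fold change of -0.11 (limma adjusted p = 0.858). Ndufaf3 was at 7.87, 7.16, 7.18 and 7.57 in scrmb and at 7.47, 8.05, 7.20 and 7.45 in MYTHO, a log2 fold change of 0.10 (limma adjusted p = 0.906). Its partner in the early matrix arm, Ndufaf4, was at 12.85, 12.83, 13.12 and 13.01 in scrmb and at 13.02, 12.69, 13.15 and 13.03 in MYTHO, a log2 fold change of 0.02 (limma adjusted p = 0.981), which turned to -0.001 with quantile normalization. Ndufaf7, a methyltransferase, was at 8.61, 8.59, 8.23 and 8.32 in scrmb and at 8.76, 8.44, 8.22 and 8.19 in MYTHO, a log2 fold change of -0.04 (limma adjusted p = 0.966), and median centring turned it to 0.01. Their groups overlapped in all 4 cases. Ndufaf8, listed under its older symbol, had a log2 fold change of 0.10 (limma adjusted p = 0.850).

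**Figure D2:**
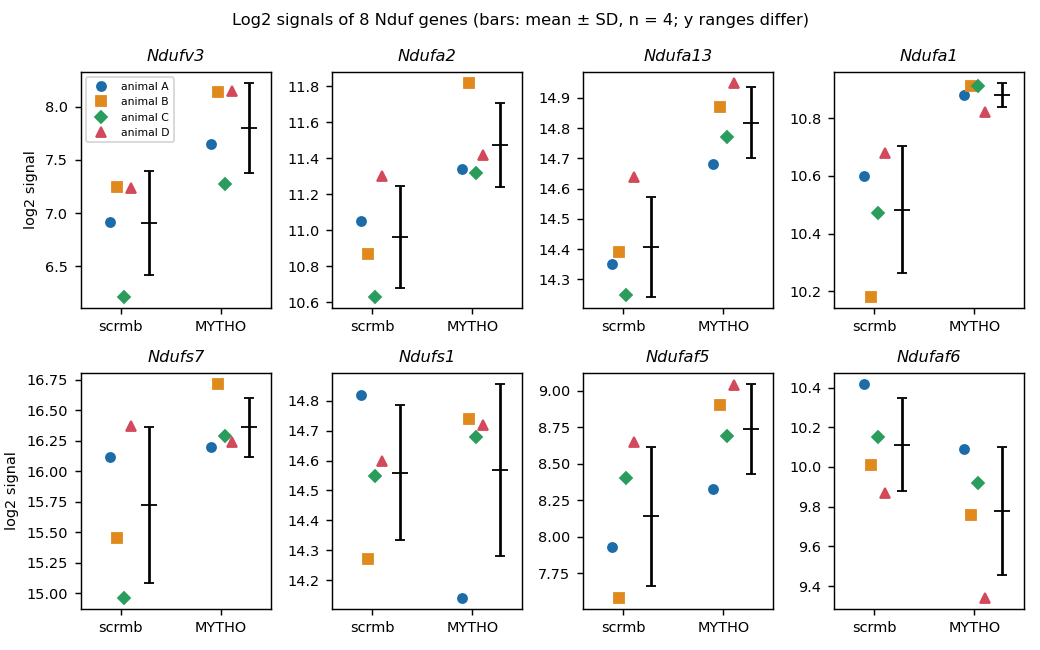
Log2 signal (y axis, a range of its own in each panel) of 8 Nduf genes in the scrmb and MYTHO arrays, 1 symbol and colour per animal, with the mean and SD of 4 arrays as black bars. The 4 genes of the top row have no overlap between the groups, whereas in Ndufs7, Ndufs1, Ndufaf5 and Ndufaf6 the groups overlap.

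The gap between the medians of the subunits and of the 7 Nduf assembly factors was 0.24 on the log2 scale, and it was positive in every alternative fit, from 0.19 to 0.38. Within the mice, the gap was 0.21, 0.71, 0.39 and 0.14 in animals A to D, above 0 in 4 of 4 with an SD of 0.25, and it was not tested. The median difference of the subunits between the MYTHO and the scrmb leg of a mouse was -0.13 in animal A, 0.57 in animal B, 0.38 in animal C and 0.11 in animal D (SD 0.30, n = 4). Of the 38 subunits, 13 were higher in the MYTHO leg of animal A, 37 in animal B, 34 in animal C and 26 in animal D. Animal A thus went against the other 3 mice. Among all 22206 probe sets, 10730, 11205, 10445 and 10715 were higher in animals A to D. The subunit median over all arrays, 0.21, was 0.35 without animal A, 0.09 without animal B, 0.17 without animal C and 0.25 without animal D, and leaving out the scrmb array of animal C alone gave 0.13. Over the 7 assembly factors, the median difference was -0.33, -0.14, -0.01 and -0.03 in animals A to D, and 3 of 7 were higher in each mouse. Higher in the MYTHO leg of all 4 mice were 7 subunits, namely Ndufv3, Ndufa2, Ndufab1, Ndufa13, Ndufa1, Ndufv2 and Ndufa6, and Ndufs4 was lower in all 4. The share of all probe sets with 1 direction in all 4 mice was not computed.

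The mean log2 signal over the 38 subunits was 13.41, 13.13, 12.98 and 13.39 in the scrmb arrays and 13.31, 13.69, 13.43 and 13.51 in the MYTHO arrays. The scrmb arrays of animals B and C were the low ones, and those of A and D were close to the MYTHO arrays. The scrmb array of animal C was the lowest of its group for 24 of 38 subunits, the MYTHO array of animal A for 25 of 38, and the MYTHO array of animal B was the highest of its group for 24 of 38. The spread was therefore shared by many subunits on an array. Over the assembly factors the mean was 9.23, 9.05, 9.27 and 9.19 in scrmb and 9.10, 9.30, 9.08 and 9.20 in MYTHO.

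**Figure D3:**
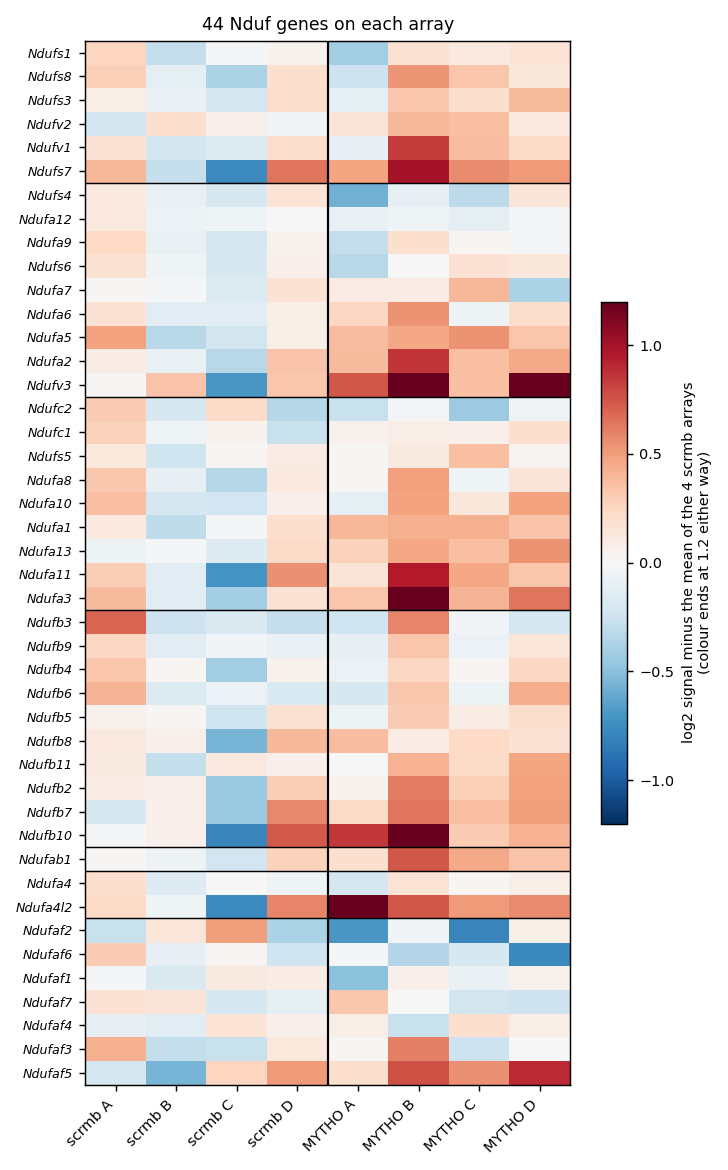
Log2 signal of 44 Nduf genes (rows, grouped by role between the black lines, the assembly factors last) on each array (columns) minus the mean of the 4 scrmb arrays, red for higher and blue for lower. Among the subunits, the column of scrmb animal C is mostly blue, that of MYTHO animal B mostly red and that of MYTHO animal A mixed, while the assembly factors share no pattern.

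Markers of fibre and cell types were read beside the Nduf genes, and none passed the adjusted test. The 8 slow-fibre genes, among them Myh7 and Tnni1, had a mean of 13.74, 12.08, 12.02 and 11.67 in scrmb and of 14.88, 14.54, 14.74 and 11.76 in MYTHO. Their median log2 fold change was 1.46, 7 of 8 were higher at an unadjusted p under 0.05 (8 of 8 with the animal as a block), and the lowest limma adjusted p was 0.280. At that unadjusted threshold 4.81% of all probe sets were higher, and 4.945% with the block. The median difference of the slow-fibre genes between the legs was 1.09, 2.19, 2.84 and 0.14 in animals A to D, so that animals B and C, with the largest subunit differences, also had the largest slow-fibre differences, whereas animal A had a slow-fibre difference of 1.09 and a subunit difference below 0. The part of slow-fibre content in the subunit values was not tested. The 6 endothelial genes had means of 9.70 to 10.10 in scrmb and 10.31 to 10.46 in MYTHO, with 6 of 6 above 0 and 2 higher at an unadjusted p under 0.05. Their median log2 fold change was 0.42, and 3 had all MYTHO arrays above all scrmb arrays, against 2.59% of all probe sets. The median difference of these genes between the legs was 0.28, 0.35, 0.43 and 0.305 in animals A to D. The 7 adipocyte genes had means of 6.73 to 10.08 in scrmb and 7.01 to 11.42 in MYTHO, the highest on the MYTHO array of animal A, and the 5 blood genes of 10.95 to 12.57 and 11.66 to 13.45, the lowest on the scrmb array of animal C. The 8 fibroblast and tendon genes had means of 10.59 to 11.62 in scrmb and 10.40 to 11.55 in MYTHO, with 6 of 8 below 0 and a median log2 fold change of -0.26, and 1, Dcn, was lower at an unadjusted p under 0.05 (log2 fold change -0.59, limma adjusted p = 0.236), without overlap. The mean over the macrophage genes lay between 7.02 and 7.38 and that over the Schwann cell genes between 6.86 and 8.63 on all arrays. The part of these cells in the Nduf values was not tested.

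**Figure D4:**
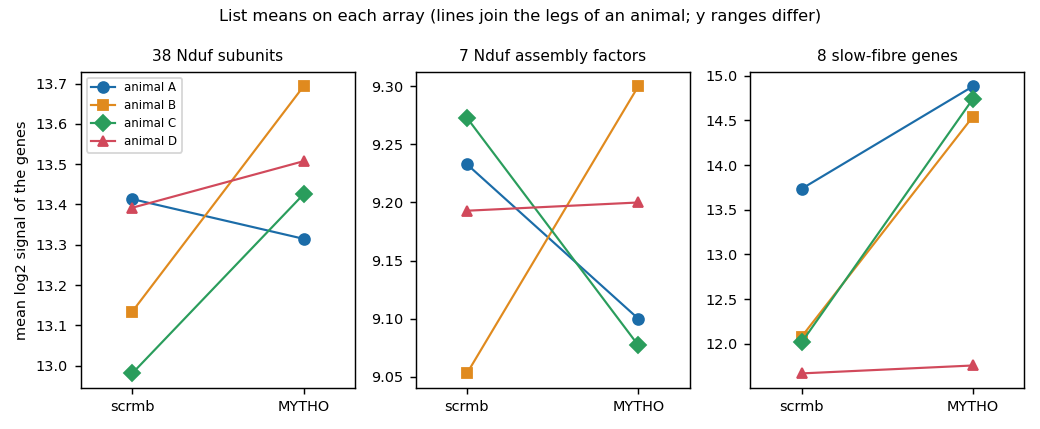
Mean log2 signal (y axis, a range of its own in each panel) of the 38 subunits, the 7 assembly factors and the 8 slow-fibre genes in the scrmb and MYTHO arrays, with a line joining the legs of each animal. The subunit mean was higher in the MYTHO leg of animals B, C and D and lower in animal A, and the slow-fibre mean of the MYTHO array of animal D, 11.76, lay far below the other MYTHO arrays.

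The rest of the respiratory chain was read from fixed lists. Of the complex I genes in mitochondrial DNA, ND1, ND3 and the shared probe set of ND4 and ND4L were saturated at 19.93 on every array and gave no difference. ND2 was at 18.19, 18.18, 18.03 and 18.18 in scrmb and at 18.18 on each MYTHO array, a plateau on which no difference can be read. The probe set of ND5 also names CYTB and was not used here. ND6, the subunit coded on the other strand, was at 14.26, 13.88, 14.17 and 14.39 in scrmb and at 13.91, 14.04, 14.07 and 14.33 in MYTHO, a log2 fold change of -0.09. Other complex I assembly factors, outside the Nduf names, were above 0 in 8 of 13 cases, with a median of 0.18 and with 0 of 13 at an unadjusted p under 0.05 in either direction, from Ecsit at 0.43 to Tmem186 at -0.45.

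Complexes II to V leaned the same way as the Nduf subunits. Of 46 nuclear genes listed for them, 43 were above 0, with a median of 0.29, and 12 were higher and 1 was lower at an unadjusted p under 0.05, or 10 and 0 with the animal as a block. The list includes 4 assembly factors of complex II (Sdhaf1 to Sdhaf4), without which 40 of 42 were above 0, with a median of 0.36. Over all probe sets, 49% were above 0. At an unadjusted p under 0.05, 4.81% of them were higher and 7.58% lower, and 4.945% were higher with the block. In complex II, 3 of 4 subunits and 3 of 4 assembly factors were above 0 (median of all 8 genes 0.19), from Sdhc at 0.99 to Sdha at -0.28. In complex III, 8 of 9 were above 0 (median 0.30), from Cyc1, the cytochrome c1 protein, at 0.97 to Uqcrb at -0.41. In complex IV, 14 of 14 were above 0 (median 0.38), from Cox6a2 at 1.10 to Cox7c at 0.05, and in complex V, the ATP synthase, 15 of 15 (median 0.36), from Atp5d at 0.71 to Atp5b at 0.11. None of these genes passed the adjusted test, the lowest limma adjusted p being 0.130, for Cox6a2, the heart and skeletal muscle isoform of a complex IV subunit. It was at 17.57, 17.08, 16.56 and 17.57 in scrmb and at 18.22, 18.63, 18.45 and 17.87 in MYTHO, without overlap. Cox6a2 and Cox8a passed in an alternative fit with a trended, robust variance, at adjusted p of 0.0333 and 0.0475, in which no Nduf gene passed. The complexes differed between mice as the subunits did, with a median difference over complexes II to V of -0.08, 0.72, 0.60 and 0.10 in animals A to D.

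Iron-sulphur cluster assembly genes, whose products supply the clusters of the matrix arm, were above 0 in 13 of 14 cases, with a median of 0.12, from Bola3 at 0.46 to Hspa9 at -0.01. Of these, 2 were higher at an unadjusted p under 0.05, against 4.81% of all probe sets. Regulators of mitochondrial biogenesis were above 0 in 9 of 16 cases, with a median of 0.12, from Esrrb at 0.69, the 1 gene with an unadjusted p under 0.05, to Nrf1 at -0.33. Ppargc1a, which codes for the coactivator PGC-1alpha, had a log2 fold change of -0.10. None of the genes in either list passed the adjusted test.

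**Figure D5:**
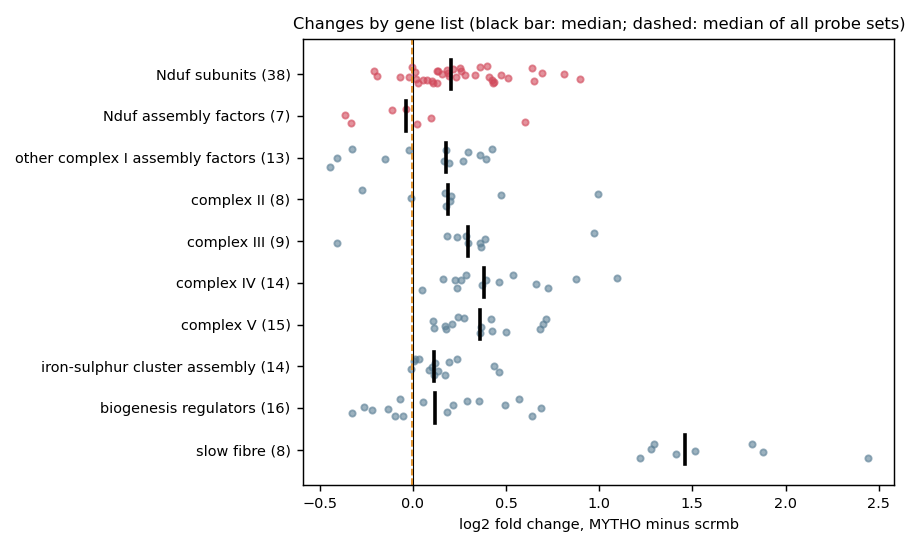
Log2 fold change of MYTHO over scrmb (x axis) for the genes of 10 lists (y axis, number of genes in brackets), 1 point per gene, with the list median as a black bar and the median of all probe sets, -0.005, as a dashed line. Nduf subunits lie mostly above 0 (median 0.21) as complexes II to V do, Nduf assembly factors spread around 0, and the slow-fibre genes lie furthest to the right (median 1.46).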

How the data were processed

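Clariom S Mouse arrays were run on biotin-labelled RNA that had been isolated with Trizol from 8 GAS muscles. The authors deposited log2 signals made with the Transcriptome Analysis Console version 4.0.1 (SST-RMA at gene level, annotation release 36, build mm10), in which arrays are quantile normalized, so that a shift shared by all genes is removed. Beside them the authors deposited the results of their own comparison, namely group averages, fold changes, p-values and false discovery rates, and none of these was used. The depth of an array is not a count, and precision was limited by 4 arrays per group.

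MYTHO was compared with scrmb in limma (version 3.58.1, R version 4.3.3; lmFit and eBayes, two-sided and without a pairing term, since the study's array methods name none), with Benjamini-Hochberg adjustment over 22206 probe sets. The code was tested on simulated data. The labels number the replicates, but no column name holds these numbers. Column names give an animal number once per group, and the study injected opposite legs, so same-numbered arrays came from 1 mouse. Their deviations from the group means correlated at 0.003, -0.001, 0.135 and 0.087 in animals A to D, against at most 0.104, 0.104, 0.052 and 0.076 with arrays of other mice in the opposite group, so the pairing rests on the column names and the injection scheme and not on these values. The unpaired p-values treat the legs as separate samples. Members and gene lists were chosen with earlier results of these data known. Genes given on every array were the 6 highest and 6 lowest fold changes, the core subunits, the assembly factors, Ndufa4, Ndufa4l2 and members without overlap between groups, to which Ndufab1 was added after its values were seen. The values of 1 member are not reported here, although it is included in the counts and medians. Other lists were named by their highest and lowest gene, with ND2, ND6, Cox8a and Ppargc1a added after their values were seen. Of the marker lists only examples were named, some of them (Myh7, Tnni1, Dcn) after their values were seen. Alternatives were other scalings, filters, variance fits, array weights, blocks on animal, left-out arrays or animals, other probe set or member rules and other thresholds.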

Additional observations from a re-analysis of the deposited data

Results flagged for a closer look

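Of 58 sets of 4 arrays examined for an array far from the rest, 3 held one whose gap to its nearest neighbour exceeded Dixon's 95% critical value as a share of the range of the set, and chance gives about 1 in 20. In Ndufs1, the MYTHO array of animal A, at 14.14, lay below the other MYTHO arrays at 14.68 to 14.74 (gap of 0.9 of the range). In D230025D16Rik, the targeted gene, the MYTHO array of animal C, at 8.80, lay above the others at 8.08 to 8.20 (0.833 of the range) and still below every scrmb array. In the mean of the slow-fibre genes, the MYTHO array of animal D, at 11.76, lay below the others at 14.54 to 14.88 (0.892 of the range).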

How the results depend on the processing

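With 4 arrays a group, the 95% intervals of the Nduf genes reached between 0.34 and 0.67 to either side. Larger differences could also miss the adjusted test, as that of Ndufv3 did (log2 fold change 0.90, limma adjusted p = 0.222). In all alternatives 0 Nduf genes passed the adjusted test, with a lowest adjusted p between 0.142 and 0.567. The fall of Mytho kept its call throughout, from -2.98 to -2.74 with an array left out. The number of Nduf genes higher at an unadjusted p under 0.05, 10, ran from 2 to 12 with an array left out, where 3.45% to 5.65% of all probe sets were higher. That number was 1 without animal B and 3 without animal C, where 2.70% and 3.23% of all probe sets were higher. It was 6 with a minimum of 1.5-fold and 0 with the 2-fold minimum of the study, where the share of all probe sets was not computed. The number lower, 0, became 1 (Ndufaf2) without animal D. With the replicate block on animal 7 were higher, against 4.945% of all probe sets. The block changed no call of the adjusted test among the Nduf genes, the other genes of the chain or Mytho. Among other genes of the chain, 2 passed the adjusted test with trend and robust in place of 0. The subunit median ran from 0.13 to 0.30 and the assembly factor median from -0.08 to 0.004 with an array left out. Quantile normalization left 32 of 38 subunits and 2 of 7 assembly factors above 0, and median centring 35 and 4, while 11721 and 12139 of all 22206 probe sets were above 0 in these fits, against 10870 without them. For 25 named genes, 495 of 525 values kept their direction and 30, none of them called, changed sign, in genes near 0. With quantile normalization Ndufs1 was at -0.0422, Ndufaf4 at -0.0011 and Ndufa4 at -0.0073, and with median centring Ndufaf7 was at 0.005. With an array or an animal left out, Ndufaf1 ran from -0.23 to 0.015, Ndufs1 from -0.143 to 0.24, Ndufaf3 from -0.167 to 0.263, Ndufaf4 from -0.0392 to 0.114, Ndufaf7 from -0.154 to 0.0358 and Ndufa4 from -0.0867 to 0.157. The cause of these differences was not tested. Adding Ndufaf8, an alternative chosen after seeing the data, gave an assembly factor median of -0.01.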
